A study of Mus musculus with 36 samples.

Results

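The genes described here are 9 molecules of leukocyte adhesion to the vessel wall: the adhesion molecules Icam1 and Vcam1, the selectins Sele and Selp, and the integrin subunits Itga4, Itga5, Itgal, Itgam and Itgb2. They were chosen by symbol, with earlier results of these data known. Each symbol matched 1 mouse Ensembl gene of the 55421 genes in the deposited count table. All 9 were among the 19478 genes that passed the filter on low counts. RNA was sequenced from slices of the right hippocampus of mice in 8 groups. Wild-type (WT) mice were C57BL/6, and T41B mice carried Thy1-hAPPLond/Swe (Line 41), a human amyloid precursor protein transgene with the London and Swedish mutations, whose Thy1 cassette is known to drive expression mainly in neurons. All mice were dosed by oral gavage for 3 months, from 13 to 16 months of age, with vehicle (VEH) or with BD10-2 (labelled PTX-BD10-2), a small-molecule ligand of the neurotrophin receptors TrkB and TrkC. Slices then received theta-burst stimulation (STIM: 3 trains, in each of which 10 bursts followed one another every 200 ms, a burst being 4 pulses given at 100 Hz) or a sham procedure of equal duration (noSTIM, here sham), and were frozen at once. The groups held 4 WT VEH, 4 T41B VEH, 3 WT BD10-2 and 5 T41B BD10-2 mice for sham slices, and the same numbers, not always from the same mice, for stimulated slices.

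Leukocytes leave the blood in steps. Selectins on activated endothelium (Sele, Selp) catch and roll passing cells, and then the immunoglobulin-family ligands Icam1 and Vcam1 hold them by binding integrins. Icam1 is bound by the pairs of Itgb2 with Itgal (LFA-1) and with Itgam (Mac-1, complement receptor 3), Vcam1 by Itga4 paired with Itgb1, while Itga5 with Itgb1 is the main fibronectin receptor. In brain, Itgam and Itgb2 are expressed mostly by microglia, Sele and Selp are close to silent in resting endothelium, and Icam1, Vcam1 and Sele are textbook targets of NF-kappaB and inflammatory cytokines.

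On GRCm38, the protein-coding genes lie at chr9:21015985-21028817, + strand (Icam1, ENSMUSG00000037405), chr3:116109949-116129688, - strand (Vcam1, ENSMUSG00000027962), chr1:164048234-164057677, + strand (Sele, ENSMUSG00000026582) and chr1:164115264-164150026, + strand (Selp, ENSMUSG00000026580). The integrin genes lie at chr2:79255426-79333123, + strand (Itga4, ENSMUSG00000027009), chr15:103344286-103366763, - strand (Itga5, ENSMUSG00000000555), chr7:127296260-127335138, + strand (Itgal, ENSMUSG00000030830), chr7:128062640-128118491, + strand (Itgam, ENSMUSG00000030786) and chr10:77530252-77565708, + strand (Itgb2, ENSMUSG00000000290). Sele and Selp are thus neighbours on chromosome 1. Annotated genes overlap 6 of the 9: Gm47079 on the strand opposite Icam1, Gm43109 opposite Vcam1, Gm16587 and Gm16548 opposite Selp, Cerkl opposite Itga4, and Mir6963 and Gm49368 on the same strand as Itga5 and Itgam. The strand setting of the counting is not given in the sources used here, so reads of these overlapping genes may be divided between them.

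RefSeq promoter sequences (GRCm38.p6) were at hand for 6 members, namely Icam1, Sele, Selp, Itga4, Itga5 and Itgam; Vcam1, Itgal and Itgb2 had no entry. The 250 bases before the RefSeq start are shown for Icam1 (chr9:21015690-21015939), Sele (chr1:164047984-164048233) and Selp (chr1:164115014-164115263), which rose after stimulation, and for Itgam (chr7:128062390-128062639), which fell. Itga5 also rose, but its window held neither motif marked in the other 3 and is not shown. All 4 genes shown are on the plus strand, and sequences run 5′ to 3′. Capitals mark GGANNNTCC (an NF-kappaB-like 9-mer) and TGANTCA (AP-1) in the first 3, and GAGGAA or its complement TTCCTC (a PU.1-like motif) in Itgam.
Icam1: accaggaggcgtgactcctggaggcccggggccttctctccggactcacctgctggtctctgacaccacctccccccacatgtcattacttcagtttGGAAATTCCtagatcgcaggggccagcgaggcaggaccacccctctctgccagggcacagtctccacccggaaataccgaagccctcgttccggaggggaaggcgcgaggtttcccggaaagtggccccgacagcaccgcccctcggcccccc
Sele: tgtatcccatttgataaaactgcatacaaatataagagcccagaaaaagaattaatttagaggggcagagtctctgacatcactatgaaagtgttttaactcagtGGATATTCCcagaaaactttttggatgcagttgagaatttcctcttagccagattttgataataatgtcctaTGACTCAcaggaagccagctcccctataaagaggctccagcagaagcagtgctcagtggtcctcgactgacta
Selp: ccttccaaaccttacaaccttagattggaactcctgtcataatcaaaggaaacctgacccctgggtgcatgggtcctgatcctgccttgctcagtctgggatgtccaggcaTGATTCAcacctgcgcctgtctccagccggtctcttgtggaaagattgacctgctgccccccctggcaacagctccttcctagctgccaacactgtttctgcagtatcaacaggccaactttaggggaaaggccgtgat
Itgam: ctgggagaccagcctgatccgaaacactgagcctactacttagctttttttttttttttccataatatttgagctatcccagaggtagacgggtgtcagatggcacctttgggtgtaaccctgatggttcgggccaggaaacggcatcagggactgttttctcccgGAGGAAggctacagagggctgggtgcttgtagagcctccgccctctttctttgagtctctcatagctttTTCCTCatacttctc

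Both strands were searched, and positions are counted back from -1 at the base before the RefSeq start. GGANNNTCC stood in Icam1 from -153 to -145 (GGAAATTCC) and in Sele from -145 to -137 (GGATATTCC), and 7.27% of 32851 RefSeq promoter windows of this length hold it. This motif was written down after the windows had been seen; the classical NF-kappaB decamer, the wording chosen first, was in none of the 6 windows and is in 3.9% of all. TGANTCA stood in Sele from -73 to -67 and in Selp from -139 to -133, and 6.75% of all windows hold it. TTCNNNGAA, the interferon-gamma activated site, stood in Icam1 from -42 and in Sele from -140, the latter overlapping the NF-kappaB-like match, against 7.02% of all. GAGGAA stood 2 times in Itgam and once each in Itga5 and Sele, against 23.25% of all, and TATAAA stood in Sele (12.37% of all). GGGCGG, the GC box, was found in Icam1, Itga4, Itga5 and Itgam, against 32.74% of all. These are matches of letters, not measured binding sites.

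The 36 libraries came from 18 mice and held 11597555 to 28125842 expected counts each (median 18082415). Libraries of the same mouse and stimulation were added, which gave 32 samples of 11597541 to 49652855 counts, and 14 mice gave both a sham and a stimulated slice. Levels are CPM, counts scaled to the library size after TMM normalisation. Neuron markers (4 genes) summed to 1756 to 3651 CPM and astrocyte markers (5 genes) to 5798 to 10970 CPM. Choroid plexus markers (8 genes) stood above 100 CPM in 6 samples, up to 1229 CPM in stimulated slices of WT VEH mice, against 15.5 to 30.9 CPM in the others. All 8 were called higher by stimulation in WT VEH mice and 0 in the other 3 stimulation comparisons; their part in the results of that group was not tested, and values without those 6 samples are given where a call changed. Endothelial markers (8 genes: Cldn5, Flt1, Kdr, Slco1a4, Ly6c1, Abcb1a, Emcn and Tie1) summed to 49.2 to 178.9 CPM in all samples but 1: the stimulated slice of Mouse1524 (WT VEH) held 21.4 CPM. Each of the 8 labelled batches holds 1 treatment, and 5 hold both genotypes. Batch E holds WT mice only, and batches G and H hold T41B mice only. In these batches genotype and batch cannot be told apart. The 6 samples high in choroid plexus markers came from batches E and G.

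Levels between genes were compared per kilobase of exon. In sham slices of WT VEH mice, the integrin subunit Itgam was highest, at 5.08 ± 0.903 CPM per kb (SD, n = 4). Itga4 at 2.51 ± 0.156, Icam1 at 2.41 ± 0.493 and Vcam1 at 2.03 ± 0.192 CPM per kb followed, and Itga4 and Icam1 differed by less than their SD. Itgb2 stood at 1.62 ± 0.275 and Itga5 at 1.14 ± 0.326 CPM per kb. Lowest were Itgal at 0.147 ± 0.0524, Sele at 0.0860 ± 0.0300 and Selp at 0.0473 ± 0.0410 CPM per kb, the selectins closer than the SD of Selp. In the stimulated slices of the same group, Icam1 (10.8), Vcam1 (8.83) and Itga5 (5.48 CPM per kb) stood above Itgam (2.44), and both selectins stood above Itgal. These 3 genes led and Itgal was last in all 4 stimulated groups, while Itgam led and the selectins were last in all 4 sham groups. The order of Icam1 and Vcam1, and that of neighbours such as Itga4, depended on whether the summed exons or the longest transcript gave the length.

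**Figure D1:**
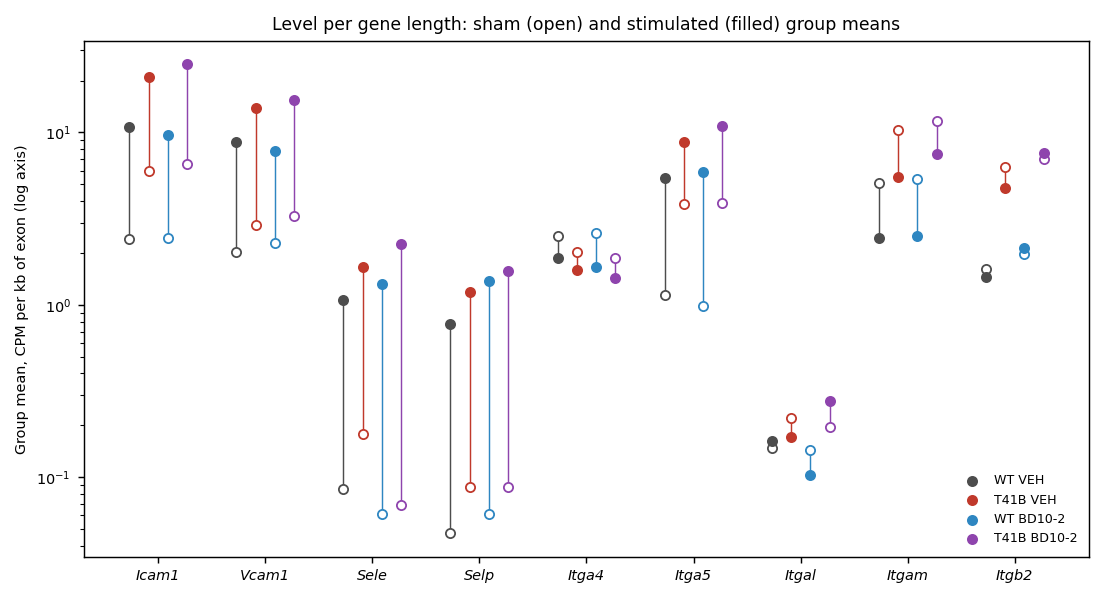
Group mean level of each gene in CPM per kb of exon (log axis), with open points for sham and filled points for stimulated slices and colours for genotype and treatment; a line joins both means of 1 genotype and treatment. Sele and Selp sit at the bottom in sham slices (0.0473 to 0.179 CPM per kb) and above Itgal in stimulated slices, and the Itgam points run the opposite way.

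After stimulation, the integrin ligands Icam1 and Vcam1 rose severalfold in each genotype and treatment. Icam1 was 9.13, 8.36, 13.01 and 11.6 CPM in the sham slices and 69.1, 41.2, 39.5 and 38.7 CPM in the stimulated slices of WT VEH mice (in order of mouse number within each kind of slice, as throughout). It was 21.2, 33.8, 26.9 and 22.1 CPM in the sham slices and 84.1, 94.3, 94.5 and 92.3 CPM in the stimulated slices of T41B VEH mice. With BD10-2, it was 11.8, 11.5 and 8.71 CPM in the sham slices and 39.1, 49.3 and 38.8 CPM in the stimulated slices of WT mice, and 21.3, 39.1, 33.98, 26.6 and 22.8 CPM in the sham slices and 116, 119.6, 123, 109.9 and 75.1 CPM in the stimulated slices of T41B mice. Sham and stimulated values did not overlap in any of the 4. The rise was 4.48-fold in WT VEH mice (log2 fold change 2.16, SE 0.21, adjusted p = 1.89e-08 in edgeR) and 3.51-fold in T41B VEH mice (log2 fold change 1.81, SE 0.20, adjusted p = 7.62e-08 in edgeR). With BD10-2 it was 3.97-fold in WT mice (log2 fold change 1.98, SE 0.24, adjusted p = 9.94e-07 in edgeR) and 3.78-fold in T41B mice (log2 fold change 1.92, SE 0.18, adjusted p = 1.55e-09 in edgeR). Within mice, Icam1 was higher in the stimulated slice of 14 of 14, by 2.79-fold to 7.57-fold. In bulk tissue, more cells of a type and more RNA per cell cannot be told apart.

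Vcam1, the ligand of the Itga4 integrin, was 16.96, 16.3, 18.7 and 20.04 CPM in the sham slices and 109.5, 82.5, 61.8 and 59.6 CPM in the stimulated slices of WT VEH mice. It was 25.9, 30.5, 20.8 and 25.5 CPM in the sham slices and 126, 145, 129.8 and 93.3 CPM in the stimulated slices of T41B VEH mice. BD10-2-treated WT mice had 18.7, 22.8 and 19.4 CPM in the sham slices and 62.4, 83.9 and 60.7 CPM in the stimulated slices, and T41B mice 27.5, 36.6, 31.2, 25.98 and 23.6 CPM in the sham slices and 167, 152, 161, 143 and 64.8 CPM in the stimulated slices. No stimulated value overlapped the sham values of its group, and the low stimulated T41B BD10-2 value belongs to Mouse1592. Its 2 stimulated libraries carry the same labels and differed, with Vcam1 at 46.1 and 80.8 CPM and Icam1 at 46.0 and 99.9 CPM. The log2 fold changes of Vcam1 were 2.12 (SE 0.22, adjusted p = 6.86e-08 in edgeR) in WT VEH mice, 2.27 (SE 0.22, adjusted p = 9.13e-09 in edgeR) in T41B VEH mice, 1.77 (SE 0.25, adjusted p = 1.52e-05 in edgeR) in WT BD10-2 mice and 2.25 (SE 0.20, adjusted p = 5.36e-10 in edgeR) in T41B BD10-2 mice. Within mice, 14 of 14 rose, by 2.74-fold to 6.46-fold. Beside these rises, 3, 3, 0 and 2 of 5 astrocyte markers were called higher and none lower with stimulation in WT VEH, T41B VEH, WT BD10-2 and T41B BD10-2 mice (median log2 fold changes 0.38, 0.34, 0.27 and 0.40), and 1, 0, 1 and 2 of 4 neuron markers were called lower and none higher. Their part in the rises was not tested.

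The selectins went from a few reads per sample to far more. Sele (E-selectin, made by activated endothelium) had 3 to 6 counts per sham sample of WT VEH mice and 6 to 147 per stimulated sample. Its levels were 0.178, 0.216, 0.377 and 0.231 CPM in the sham slices and 6.81, 3.03, 2.20 and 0.369 CPM in the stimulated slices of WT VEH mice. They were 0.625, 0.987, 0.106 and 0.367 CPM in the sham slices and 6.77, 5.68, 2.59 and 4.23 CPM in the stimulated slices of T41B VEH mice. Stimulated values lay above all sham values of their group in T41B VEH mice, while in WT VEH mice 1 stimulated value, that of Mouse1524, lay within the sham range. With BD10-2, Sele was 0.216, 0.261 and 0.0541 CPM in the sham slices and 3.08, 5.77 and 2.69 CPM in the stimulated slices of WT mice, and 0.387, 0.259, 0.173, 0.0825 and 0.106 CPM in the sham slices and 10.8, 6.65, 5.59, 5.21 and 4.52 CPM in the stimulated slices of T41B mice, with no overlap. The log2 fold changes were 3.62 (SE 0.65, adjusted p = 0.000197 in edgeR) in WT VEH, 3.19 (SE 0.55, adjusted p = 8.59e-05 in edgeR) in T41B VEH, 4.29 (SE 0.71, adjusted p = 0.000104 in edgeR) in WT BD10-2 and 4.78 (SE 0.55, adjusted p = 7.22e-08 in edgeR) in T41B BD10-2 mice. Since sham counts were this low (16, 39, 17 and 26 counts over the group, in that order), the size of these changes is less certain than their direction.

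Selp (P-selectin, stored in endothelial and platelet granules) was 0.178, 0.216, 0.440 and 0 CPM in the sham slices and 7.50, 3.53, 2.33 and 0.246 CPM in the stimulated slices of WT VEH mice. It was 0.500, 0.839, 0.0532 and 0.158 CPM in the sham slices and 7.18, 6.25, 3.30 and 4.36 CPM in the stimulated slices of T41B VEH mice. With BD10-2, WT mice had 0.276, 0.0522 and 0.487 CPM in the sham slices and 4.50, 11.6 and 2.19 CPM in the stimulated slices, and T41B mice 0.722, 0.622, 0.347, 0.247 and 0 CPM in the sham slices and 10.46, 3.71, 8.60, 7.85 and 4.17 CPM in the stimulated slices. As for Sele, only Mouse1524 put a stimulated value within the sham range of its group. The log2 fold changes were 4.04 (SE 0.86, adjusted p = 0.00169 in edgeR) in WT VEH, 3.74 (SE 0.75, adjusted p = 0.000469 in edgeR) in T41B VEH, 4.43 (SE 0.87, adjusted p = 0.000861 in edgeR) in WT BD10-2 and 3.99 (SE 0.65, adjusted p = 2.27e-05 in edgeR) in T41B BD10-2 mice. Sele and Selp were each higher in the stimulated slice of 14 of 14 mice. The call of Selp ended in WT BD10-2 mice without Mouse1571 (log2 fold change 3.21, edgeR adjusted p = 0.0533), and in WT VEH mice without the samples over 100 CPM of choroid plexus markers (2.701, edgeR adjusted p = 0.0656). Sele there was 2.40 (edgeR adjusted p = 0.0123) without those samples. Of the stimulated WT VEH slices, this kept those of Mouse1522 and Mouse1524, the latter the lowest in endothelial markers (below). Same-label libraries again differed: those of stimulated Mouse1586 (WT BD10-2) held 4.15 and 0.868 CPM of Sele and 3.56 and 0.467 CPM of Selp.

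The 8 endothelial markers named above were set beside the selectins. None was called higher by stimulation in any of the 4 comparisons (edgeR), and 2, 1, 2 and 2 were called lower in WT VEH, T41B VEH, WT BD10-2 and T41B BD10-2 mice, with median log2 fold changes of -0.66, 0.24, -0.55 and -0.24. Of 7 mural cell markers, none was called higher and 2, 0, 1 and 2 lower. The endothelial genes Cdh5 and Pecam1, from another list, had positive log2 fold changes in all 4 (below). Cdh5 was called higher in all 4, and Pecam1 in T41B VEH and T41B BD10-2 mice. The stimulated slice of Mouse1524 held 21.4 CPM of endothelial and 40.8 CPM of mural markers. It had the lowest Sele (0.369 CPM) and Selp (0.246 CPM) of all stimulated samples. Its Icam1 (38.7 CPM) and Vcam1 (59.6 CPM) were also the lowest of the stimulated WT VEH slices, though near the next (39.5 and 61.8 CPM). Itga5 there (25.6 CPM) lay within the range of the others. Without this slice and the sham sample of Mouse1553, the samples under 50 CPM of endothelial markers, the log2 fold changes in WT VEH mice were 3.97 for Sele (edgeR adjusted p = 3.74e-06) and 4.41 for Selp (edgeR adjusted p = 0.000154). Of the 2 platelet markers tested, Gp6 and Itga2b, 1 was called higher in each of WT VEH, T41B VEH and T41B BD10-2 mice and 0 in WT BD10-2 mice, at summed levels of 5 markers of 1.32 to 4.02 CPM. The part of platelets in Selp was not tested.

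**Figure D2:**
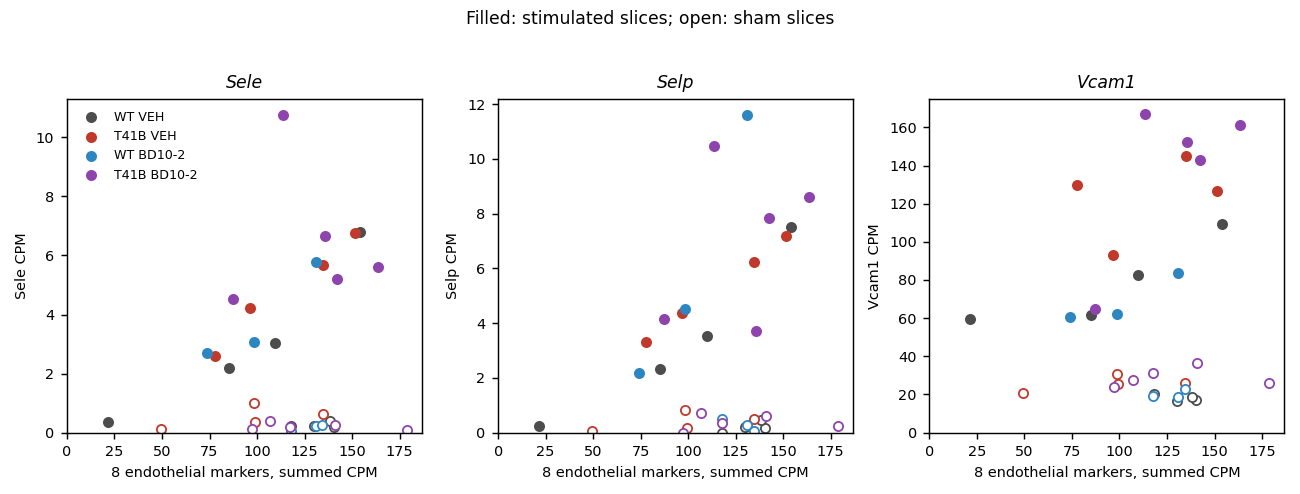
Sele, Selp and Vcam1 (CPM, vertical) against the summed CPM of 8 endothelial markers (horizontal) in the 32 samples, filled for stimulated and open for sham slices, coloured by genotype and treatment. Sham samples lie near 0 for both selectins at marker sums of 49.2 to 178.9 CPM, and the stimulated slice of Mouse1524, at 21.4 CPM of markers, is the filled point near 0 for Sele and Selp but not for Vcam1.

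Among the integrin subunits, Itga5 rose, Itgam fell, and Itgal and Itgb2 did not pass the test. Itga5, the fibronectin receptor subunit, was 4.92, 3.96, 7.73 and 5.83 CPM in the sham slices and 30.8, 22.8, 29 and 25.6 CPM in the stimulated slices of WT VEH mice. It was 19.3, 23.1, 15.4 and 18.4 CPM in the sham slices and 42.2, 47.7, 39.1 and 45.4 CPM in the stimulated slices of T41B VEH mice. In BD10-2-treated mice it was 5.73, 5.90 and 2.92 CPM in the sham slices and 30.3, 30.01 and 27.4 CPM in the stimulated slices of WT animals, and 15.1, 25.2, 22.9, 19.4 and 13.1 CPM in the sham slices and 51.3, 60.9, 54.4, 45.7 and 56.7 CPM in the stimulated slices of T41B animals. Values did not overlap in any of the 4, and within each treatment the sham values of T41B mice lay above those of WT mice. The rise was 4.82-fold in WT VEH mice (log2 fold change 2.26, SE 0.20, adjusted p = 4.22e-09 in edgeR) and 6.03-fold in WT BD10-2 mice (log2 fold change 2.57, SE 0.23, adjusted p = 8.63e-09 in edgeR). In T41B mice it was 2.29-fold with vehicle (log2 fold change 1.19, SE 0.18, adjusted p = 1.58e-05 in edgeR) and 2.81-fold with BD10-2 (log2 fold change 1.496, SE 0.16, adjusted p = 3.56e-08 in edgeR). Within mice it rose in 14 of 14, by 2.04-fold to 6.25-fold.

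Itgam (CD11b, the Mac-1 alpha subunit and a common microglial marker) was 27.8, 25.4, 19.2 and 29.7 CPM in the sham slices and 11.9, 10.96, 11.7 and 14.4 CPM in the stimulated slices of WT VEH mice. It was 36.8, 65.1, 48.5 and 56.8 CPM in the sham slices and 22.7, 33.4, 22.9 and 31.2 CPM in the stimulated slices of T41B VEH mice. With BD10-2, it was 28.1, 27.1 and 25.7 CPM in the sham slices and 11.4, 13.9 and 12.3 CPM in the stimulated slices of WT mice, and 55.02, 61.6, 57.2, 47.6 and 70.4 CPM in the sham slices and 50.8, 41.2, 31.6, 26.5 and 38.03 CPM in the stimulated slices of T41B mice. Stimulated values lay below the sham values except in T41B BD10-2 mice, where they overlapped. The log2 fold changes were -1.06 (SE 0.18, adjusted p = 0.000118 in edgeR) in WT VEH, -0.91 (SE 0.17, adjusted p = 0.000279 in edgeR) in T41B VEH, -1.109 (SE 0.21, adjusted p = 0.000498 in edgeR) in WT BD10-2 and -0.63 (SE 0.15, adjusted p = 0.00288 in edgeR) in T41B BD10-2 mice, and Itgam was lower in the stimulated slice of 14 of 14 mice. Microglia markers moved with it: of 10, none was called higher and 7, 8, 7 and 6 were called lower in the same 4 comparisons, with median log2 fold changes of -0.79, -1.08, -0.91 and -0.68. Their summed level fell from 282.5 to 373.2 CPM in sham to 126.6 to 217.1 CPM in stimulated slices of WT VEH mice. The part of microglial RNA in the fall of Itgam was not tested.

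Its partner Itgb2 (CD18) did not pass the test in any of the 4. Itgb2 was 5.04, 4.83, 3.96 and 6.01 CPM in the sham slices and 4.17, 4.30, 4.75 and 4.55 CPM in the stimulated slices of WT VEH mice, which overlapped. It was 14.9, 25.6, 17.4 and 18.9 CPM in the sham slices and 10.6, 20.8, 12.5 and 14.1 CPM in the stimulated slices of T41B VEH mice, lower in the stimulated slice of each of the 4. The difference there was not called (log2 fold change -0.41, SE 0.19, adjusted p = 0.122 in edgeR), but it was when slices of a mouse were paired as a replicate block (-0.42, edgeR adjusted p = 0.00686). Those of WT VEH (-0.16), WT BD10-2 (0.11) and T41B BD10-2 mice (0.11) were not called, with edgeR adjusted p from 0.684 to 0.839.

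Itga4, the Vcam1 receptor subunit, lay between 22.5 and 42.1 CPM in sham and between 17.7 and 32.6 CPM in stimulated slices. It was lower in the stimulated slice of 13 of 14 mice, at 0.518 to 1.05 times the sham level. The fall was called in WT BD10-2 mice (log2 fold change -0.65, SE 0.17, adjusted p = 0.0111 in edgeR) and T41B BD10-2 mice (-0.38, SE 0.13, adjusted p = 0.0343 in edgeR), while WT VEH (-0.42, SE 0.15, adjusted p = 0.0574 in edgeR) and T41B VEH mice (-0.35, SE 0.15, adjusted p = 0.0925 in edgeR) missed the threshold. Without the samples over 100 CPM of choroid plexus markers both were called (-0.63, edgeR adjusted p = 0.00933, and -0.59, edgeR adjusted p = 0.0449). This kept the stimulated slices of Mouse1522 and Mouse1524 in WT VEH mice, and the slices of Mouse1510 and Mouse1579 in T41B VEH mice. WT VEH was also called by DESeq2 (adjusted p = 0.0447), with batch as a covariate (edgeR, 0.0311) and without Mouse1513 (0.0281), and T41B VEH without Mouse1553 (0.0488). The call in WT BD10-2 mice ended without Mouse1571 (-0.56, edgeR adjusted p = 0.142) or Mouse1590 (-0.54, adjusted p = 0.1). That in T41B BD10-2 mice ended without Mouse1557, Mouse1563, Mouse1564, Mouse1572 or Mouse1592 (-0.34 to -0.40, edgeR adjusted p = 0.0547 to 0.106), with batch as a covariate (-0.34, adjusted p = 0.0655) and with no filter on low counts (-0.37, adjusted p = 0.0583). With the replicate block, the values were -0.44 (edgeR adjusted p = 0.0325) in WT VEH, -0.59 (0.0765) in WT BD10-2 and -0.34 (0.0846) in T41B BD10-2 mice. Neuron markers also had lower median sums in stimulated than in sham slices of each genotype and treatment, 2916 against 3489 CPM in WT VEH mice. Their part in the Itga4 values was not tested. Itgal (CD11a, the LFA-1 alpha subunit of lymphocytes and other leukocytes) held 4 to 53 counts per sample and 0.162 to 3.33 CPM. It was higher in the stimulated slice of 8 of 14 mice and was not called in any stimulation comparison.

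**Figure D3:**
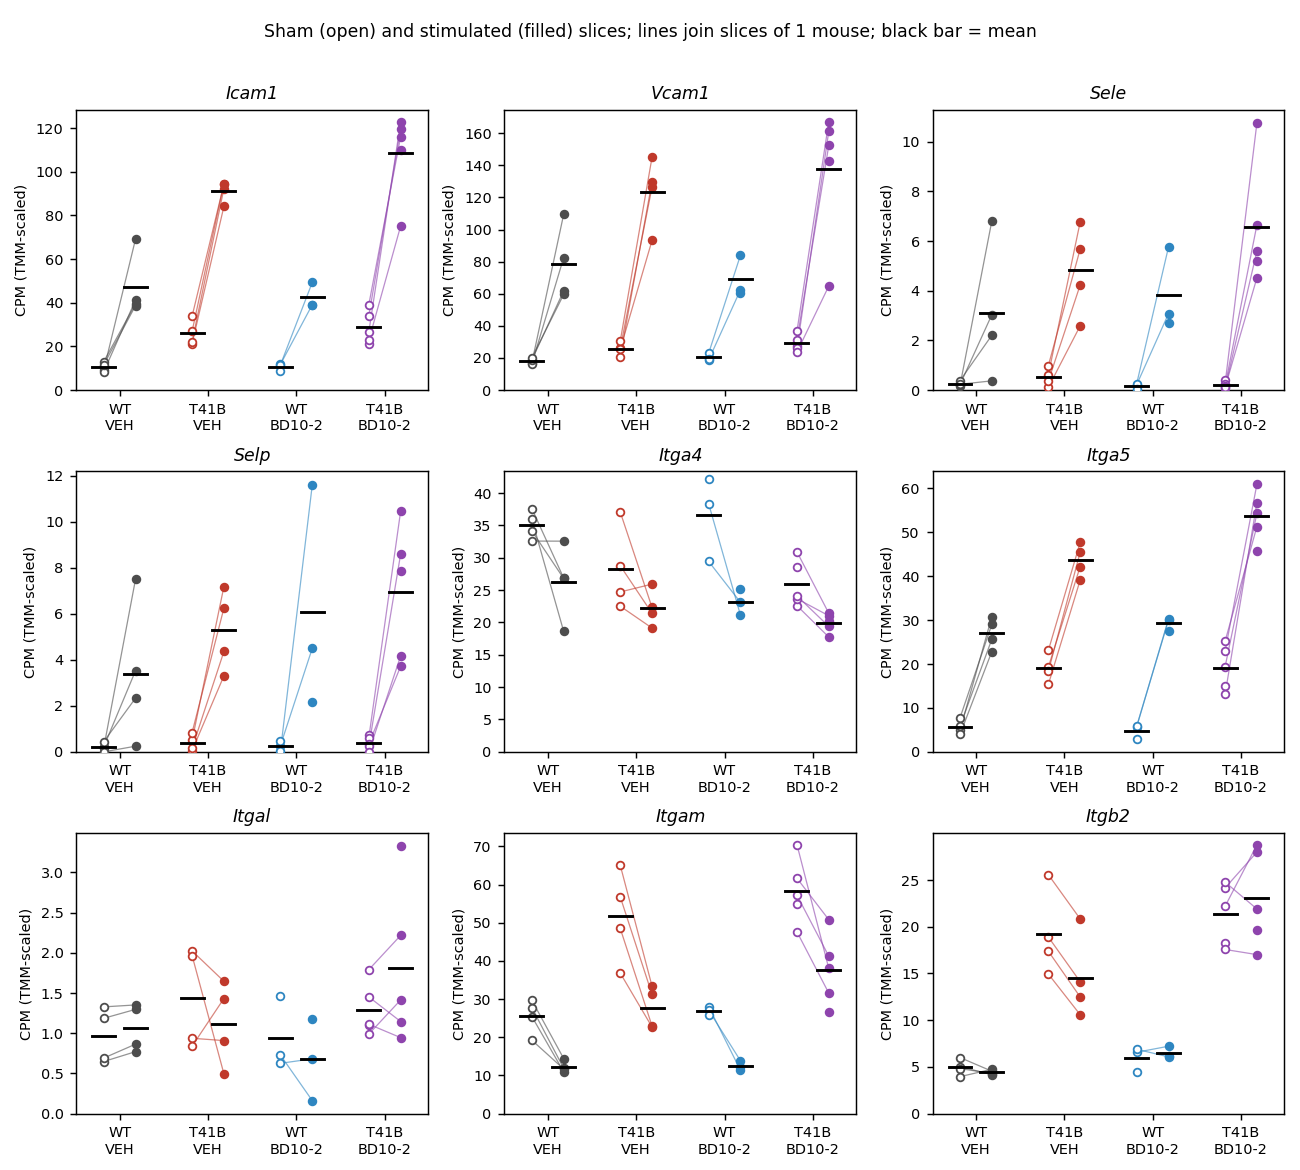
CPM of each gene in the 32 samples, with open points for sham and filled points for stimulated slices, lines joining both slices of 1 mouse, and black bars for group means; each panel has its own axis from 0. Lines rise for Icam1, Vcam1, Sele, Selp and Itga5 and fall for Itgam in 14 of 14 mice, and those of Itgal and Itgb2 go both ways.

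Over the 9 genes, stimulation called 5 of 9 higher in each of the 4 comparisons, against 8.21%, 11.7%, 6.29% and 13.3% of all 19478 genes tested in WT VEH, T41B VEH, WT BD10-2 and T41B BD10-2 mice. It called 1, 1, 2 and 2 of 9 lower, against 4.1%, 9.83%, 2.58% and 9.52% of all genes. Since the 9 were chosen with earlier results of these data known, an excess over all genes is no independent result. The median log2 fold change of the 9 was 2.12, 1.19, 1.77 and 1.5, beside -0.0097, -0.0524, -0.0072 and -0.04 over all genes. Neutrophil and monocyte markers were near 0 in sham and stimulated slices: none of 8 neutrophil and 5 monocyte markers passed the filter, neutrophil markers summed to at most 0.398 CPM and monocyte markers to at most 1.14 CPM, and Ly6g, which defines neutrophils, had a median of 0 and at most 0.0494 CPM. S100a8 reached 0.299 CPM and the monocyte receptor Ccr2 0.448 CPM. T cell markers (7 genes) summed to 0.629 to 4.08 CPM, with Lck at 0.417 to 2.83 CPM and the defining Cd3e at 0 to 0.839 CPM. Of the 2 that passed the filter, Lck and Cd8a, 1 was called higher by stimulation in T41B BD10-2 mice and none in the other 3 comparisons; the median sum there was 1.81 CPM in sham and 3.54 CPM in stimulated slices. The part of leukocyte RNA in the integrin values was not tested. Erythroid markers (4 genes) were present in all samples, at 44.9 to 128.7 CPM.

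The genotype comparisons asked which of these genes differ between T41B and WT mice of the same treatment and stimulation. Icam1, Itga5, Itgam and Itgb2 were higher in T41B mice in all 4. Itgb2 had sham values of 14.9, 25.6, 17.4 and 18.9 CPM in T41B VEH against 5.04, 4.83, 3.96 and 6.01 CPM in WT VEH mice, and 18.2, 24.2, 22.2, 17.6 and 24.8 CPM in T41B BD10-2 against 6.57, 6.89 and 4.49 CPM in WT BD10-2 mice. In stimulated slices it was 23.1 ± 5.15 CPM (SD, n = 5) in T41B BD10-2 against 6.49 ± 0.632 CPM (SD, n = 3) in WT BD10-2 mice. Genotypes did not overlap for Itgb2 in any of the 4 comparisons. Its log2 fold changes were 1.95 (SE 0.20, adjusted p = 2.53e-07 in edgeR) and 1.70 (SE 0.20, adjusted p = 2.56e-06 in edgeR) in sham and stimulated slices with vehicle, and 1.83 in both with BD10-2 (SE 0.21, adjusted p = 1.31e-06 in edgeR and 8.37e-07). Itgam, with the values given above, was 2.03-fold and 2.25-fold higher with vehicle (log2 fold change 1.02, SE 0.18, adjusted p = 0.000283 in edgeR, and 1.17, SE 0.18, adjusted p = 9.12e-05 in edgeR) and 2.17-fold and 3.0-fold higher with BD10-2 (1.114, SE 0.18, adjusted p = 0.000199 in edgeR, and 1.59, SE 0.19, adjusted p = 1.87e-06 in edgeR). Of the 10 microglia markers, 9, 6, 8 and 10 stood higher (called) among T41B mice in sham and stimulated VEH and sham and stimulated BD10-2 slices, with median log2 fold changes of 1.56, 1.09, 1.4 and 1.61.

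Icam1 was 25.99 ± 5.79 CPM (SD, n = 4) in sham T41B VEH against 10.51 ± 2.15 CPM (SD, n = 4) in sham WT VEH slices (log2 fold change 1.304, SE 0.21, adjusted p = 0.00012 in edgeR). In stimulated slices with vehicle it was 91.3 ± 4.90 CPM (SD, n = 4) against 47.1 ± 14.7 CPM (SD, n = 4) (log2 fold change 0.95, SE 0.19, adjusted p = 0.00179 in edgeR). With BD10-2 the log2 fold change was 1.42 in sham (SE 0.22, adjusted p = 7.56e-05 in edgeR) and 1.36 in stimulated slices (SE 0.21, adjusted p = 3.6e-05 in edgeR). Genotypes did not overlap in any of the 4. Of the 8 endothelial markers, 0 were called higher in T41B mice in any of these comparisons and 0, 1, 0 and 0 lower, while 2, 2, 2 and 4 of 5 astrocyte markers were called higher. Choroid plexus markers were called in 1 of 8 (higher, median log2 fold change 1.88) in sham VEH and 3 of 8 (lower, -2.47) in stimulated VEH slices, and 0 of 8 with BD10-2. The part of astrocyte or choroid plexus RNA was not tested. Itga5 was 3.39-fold higher in sham VEH slices of T41B mice (log2 fold change 1.76, SE 0.20, adjusted p = 8.52e-07 in edgeR) and 3.95-fold higher in sham BD10-2 slices (log2 fold change 1.95, SE 0.21, adjusted p = 6.49e-07 in edgeR). In stimulated slices it was 1.61-fold higher with vehicle (log2 fold change 0.69, SE 0.18, adjusted p = 0.0181 in edgeR) and 1.84-fold higher with BD10-2 (log2 fold change 0.88, SE 0.19, adjusted p = 0.00173 in edgeR). The call in stimulated VEH slices ended without Mouse1513 (0.61, edgeR adjusted p = 0.0681), without Mouse1551 (0.64, adjusted p = 0.0628), without the samples over 100 CPM of choroid plexus markers (0.69, adjusted p = 0.251) and with batch as a covariate (0.56, adjusted p = 0.119). The log2 fold change in these was 0.56 to 0.69, beside 0.69 with all samples. The choroid plexus setting kept Mouse1510 and Mouse1579 against Mouse1522 and Mouse1524.

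Vcam1 was called higher in T41B mice in 1 of the 4, stimulated BD10-2 slices, where the low value of Mouse1592 made the genotypes overlap (138 ± 41.8 CPM (SD, n = 5) against 68.97 ± 12.9 CPM (SD, n = 3); log2 fold change 0.999, SE 0.22, adjusted p = 0.00254 in edgeR). Its log2 fold changes in the other 3 were 0.51 (SE 0.22, adjusted p = 0.176 in edgeR) in sham VEH, 0.66 (SE 0.21, adjusted p = 0.0609 in edgeR) in stimulated VEH and 0.52 (SE 0.23, adjusted p = 0.204 in edgeR) in sham BD10-2 slices, and in both sham comparisons the genotypes did not overlap. Stimulated VEH slices were called by DESeq2 (0.68, adjusted p = 0.0298) and by edgeR without Mouse1509 (0.86, adjusted p = 0.0186) or Mouse1579 (0.77, adjusted p = 0.0363), and sham BD10-2 slices when only those groups were fitted (0.51, edgeR adjusted p = 0.0375). Sele and Selp were not called in any genotype comparison, with log2 fold changes of 0.22 to 1.05 and SE of 0.458 to 1.113, the larger SE in sham slices, where counts were lowest. Without the samples over 100 CPM of choroid plexus markers, the values in stimulated VEH slices went from 0.62 each to 2.04 for Sele (edgeR adjusted p = 0.0576) and 2.09 for Selp (edgeR adjusted p = 0.26). That kept Mouse1522 and Mouse1524 as the WT mice, the latter with 21.4 CPM of endothelial markers. Without the samples under 50 CPM of endothelial markers, the values were 0.29 for Sele (edgeR adjusted p = 0.727) and 0.27 for Selp (edgeR adjusted p = 0.831). Itga4 was lower in T41B mice in sham BD10-2 slices (25.98 ± 3.59 against 36.6 ± 6.51 CPM, SD, n = 5 and 3; log2 fold change -0.49, SE 0.15, adjusted p = 0.0474 in edgeR), though the genotypes overlapped. The call ended without Mouse1564, Mouse1570, Mouse1571, Mouse1590 or Mouse1592 (-0.38 to -0.46, edgeR adjusted p = 0.101 to 0.281), with library size scaling (-0.49, adjusted p = 0.0861), with libraries kept separate (-0.40, adjusted p = 0.0626) and with the replicate block in limma-voom (-0.47, adjusted p = 0.0623). Itga4 was not called in the other 3 (-0.31, -0.24 and -0.22), though it was in sham VEH slices without Mouse1510 (-0.47, edgeR adjusted p = 0.0388). Itgal reached 1.34 in stimulated BD10-2 slices (SE 0.48, adjusted p = 0.0703 in edgeR) and was not called by edgeR in any of the 4. In that comparison it was called by DESeq2 (1.4, adjusted p = 0.033) and by edgeR without Mouse1586 (2.15, adjusted p = 0.0213) or Mouse1592 (1.53, adjusted p = 0.0342).

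Of the 9 genes, 4, 4, 4 and 5 had a called rise from WT to T41B mice in sham VEH, stimulated VEH, sham BD10-2 and stimulated BD10-2 slices, against 5.0%, 4.74%, 4.31% and 8.19% of all genes. Lower were 0, 0, 1 and 0, against 1.24%, 1.05%, 1.14% and 2.36%. The choice of the 9 with earlier results known bears on these shares too. The median log2 fold change of the 9 was 1.02, 0.658, 0.654 and 0.999, beside 0.0014, -0.026, 0.0071 and -0.0196 over all genes. Within batches A, C, D and I, 7 comparisons of genotypes at equal treatment and stimulation could be made, of 1 or 2 mice a genotype. The T41B level was above the WT level in 7 of 7 for Icam1 (1.63 to 2.63 times), Vcam1 (1.22 to 2.08), Itga5 (1.45 to 4.49), Itgam (1.73 to 2.74) and Itgb2 (2.23 to 5.52), and in 2 of 7 for Itga4 (0.572 to 1.15). It was above in 6 of 7 for Sele (0.346 to 11.5), in 5 of 7 for Itgal (0.632 to 5.62) and in 5 of the 6 comparisons with a WT value above 0 for Selp (0.0 to 17.7), all on low counts. These comparisons are not independent: the sham and stimulated slices of batches A and C came from the same mice, and those of batch I share 3 mice.

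**Figure D4:**
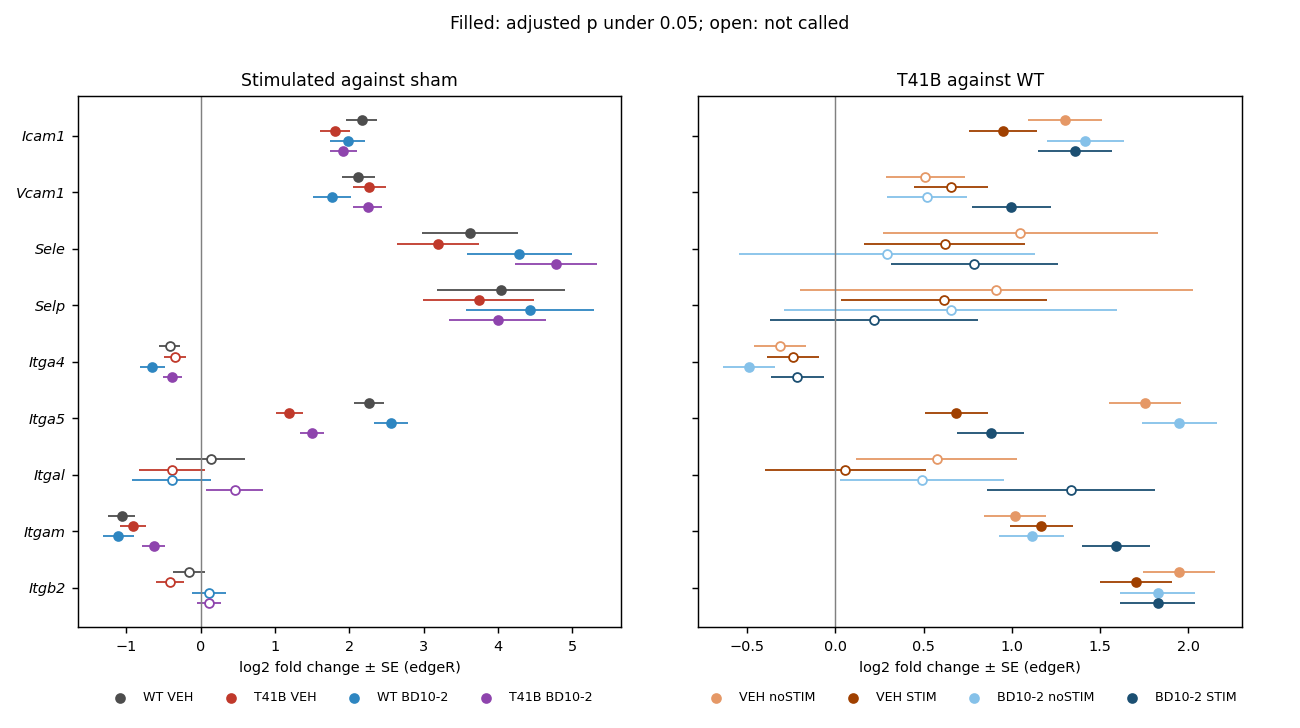
Log2 fold changes of the 9 genes with their SE (edgeR), stimulated against sham slices on the left in the 4 combinations of genotype and treatment, and T41B against WT mice on the right in the 4 combinations of treatment and stimulation; filled points are called at an adjusted p under 0.05. On the left Sele and Selp lie between 3.19 and 4.78 and Itgam below 0, and on the right Itgb2 lies between 1.70 and 1.95.

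Whether stimulation acts differently in T41B mice was tested as the difference between both stimulation effects. By edgeR, no member and none of the 19478 genes was called (0.0%) with vehicle or with BD10-2, and 1683 and 846 genes had an unadjusted p under 0.05. DESeq2 called 4 and 20 genes, edgeR with the replicate block 3 and 0, edgeR with no low-count filter 0 and 2, and limma-voom with the replicate block 0 and 5; no member was among them. The single member under that unadjusted limit was Itga5 in both: its stimulation effect was smaller in T41B mice with a log2 difference of -1.07 with vehicle (SE 0.27, adjusted p = 0.315 in edgeR) and of -1.07 with BD10-2 (SE 0.27, adjusted p = 0.388 in edgeR). Without Mouse1592 the BD10-2 difference was -1.19 with an edgeR adjusted p of 0.0452, and 79 genes were then called. Sham T41B slices started from a higher level of Itga5 (19.04 and 19.15 CPM, against 5.61 and 4.85 CPM in WT mice).

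BD10-2 was compared with vehicle in each genotype and stimulation. By edgeR, no member and none of the 19478 genes was called (0.0% in WT sham, 0.0% in WT stimulated, 0.0% in T41B sham and 0.0% in T41B stimulated slices). At an unadjusted p under 0.05, edgeR found 374, 1093, 431 and 759 genes and 0, 1, 0 and 2 members. DESeq2 called 0, 25, 0 and 0 genes, none of them a member. In stimulated WT slices edgeR called 11 genes with libraries kept separate, 21 without Mouse1522, 26 without Mouse1524 and 39 without the samples under 50 CPM of endothelial markers, again no member. It called 1 gene, no member, in sham WT slices without Mouse1524 and in stimulated T41B slices without the samples over 100 CPM of choroid plexus markers. The members under the unadjusted limit were Itgb2 in stimulated WT slices, where values did not overlap (log2 fold change 0.55, SE 0.22, adjusted p = 0.881 in edgeR) and Itgb2 and Itgam in stimulated T41B slices. Itgb2 in stimulated T41B slices was 27.99, 28.8, 17.02, 19.6 and 21.9 CPM with BD10-2 and 10.6, 20.8, 12.5 and 14.1 CPM with vehicle, which overlapped (log2 fold change 0.67, SE 0.18, adjusted p = 0.719 in edgeR). Itgam there was 1.37 times its vehicle level (log2 fold change 0.45, SE 0.17, adjusted p = 1 in edgeR). The 10 microglia markers had a median log2 fold change of 0.53 in the same comparison, with none called, and summed to a median of 437.7 CPM with vehicle and 614.9 CPM with BD10-2; their part in the integrin values was not tested. No difference of the stimulation effect by treatment was called by edgeR (0.0% of genes in WT and 0.0% in T41B mice), and DESeq2 called 0 and 1 genes, no member. By edgeR 1 gene, no member, was called in WT mice without the samples under 50 CPM of endothelial markers and in T41B mice without those over 100 CPM of choroid plexus markers. With all samples, 337 and 526 genes, and 0 and 1 members, had an unadjusted p under 0.05 in edgeR, the member being Itgb2 in T41B mice (log2 difference 0.52, SE 0.25). Treatment and batch cannot be told apart here, and a p that misses the threshold does not show that the drug left these genes unmoved: the SE of Icam1 between treatments was 0.18 to 0.23.

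Related genes of adhesion were read from lists, which were also chosen with earlier results of these data known. Of 11 endothelial adhesion and junction genes tested, 2, 4, 2 and 4 rose and 1, 0, 1 and 1 fell with stimulation in WT VEH, T41B VEH, WT BD10-2 and T41B BD10-2 mice, against 8.21%, 11.7%, 6.29% and 13.3% of all genes called higher and 4.1%, 9.83%, 2.58% and 9.52% called lower. Their median log2 fold changes were 0.23, 0.32, 0.21 and 0.31. Cdh5 (VE-cadherin, the endothelial junction protein) rose in all 4, by log2 fold changes of 1.54, 2.62, 1.84 and 2.04, from 15.6 ± 2.67 CPM (SD, n = 4) to 45.1 ± 31.1 CPM (SD, n = 4) in WT VEH mice, and the stimulated slice of Mouse1524 held 7.56 CPM. Mcam had log2 fold changes of 0.88, 0.45, 0.89 and 0.49 in the same order, of which all but the second passed the test. Those of Pecam1 were 0.56, 1.37, 0.95 and 0.93, with the second and the last past the threshold, and those of Cd99l2 were -0.36, -0.24, -0.38 and -0.36, with all but the second past it. Each kept its sign in all 4, and edgeR called none of the 11 for a difference in stimulation effect between genotypes or treatments. By genotype, 1 of the 11 was called in each comparison (all genes: 5.0%, 4.74%, 4.31% and 8.19% higher), F11r (JAM-A, a junctional adhesion molecule), at 1.112, 0.74, 1.07 and 1.45 higher in T41B mice.

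Of 5 leukocyte selectin ligands and homing receptors tested, 1, 2, 1 and 1 rose and 1 fell in each of the 4 stimulation comparisons, in the same order and against 8.21%, 11.7%, 6.29% and 13.3% of all genes called higher and 4.1%, 9.83%, 2.58% and 9.52% called lower. Cd44, the hyaluronan receptor, rose by log2 fold changes of 2.99, 2.97, 3.43 and 3.03, in WT VEH mice from 6.19 ± 4.12 CPM (SD, n = 4) to 49.5 ± 9.50 CPM (SD, n = 4). Selplg (PSGL-1, the ligand of Selp, in brain a microglial transcript) fell by 2.48, 2.41, 2.60 and 1.76 on the log2 scale. Selp and its ligand transcript thus went opposite ways in all 4 comparisons. Fut7, which makes the selectin-binding sugar, passed the test in T41B VEH mice (log2 fold change 1.81, edgeR adjusted p = 0.0201), from 0.315 ± 0.0987 CPM (SD, n = 4) to 1.114 ± 0.407 CPM (SD, n = 4). Its values in WT VEH, WT BD10-2 and T41B BD10-2 mice were 0.57, 1.81 and 0.82 (edgeR adjusted p = 0.586, 0.0853 and 0.27), and edgeR called none of the 5 genes for a difference in stimulation effect between genotypes or treatments. By genotype 2 of the 5 were higher in T41B mice in all 4 (all genes: 5.0%, 4.74%, 4.31% and 8.19%), Cd44 (1.22, 1.20, 2.12 and 1.72) and Selplg (1.29, 1.35, 1.16 and 2.00).

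Of 16 other integrin subunits tested, 2, 4, 2 and 4 rose and 1, 2, 1 and 2 fell with stimulation, against 8.21%, 11.7%, 6.29% and 13.3% of all genes called higher and 4.1%, 9.83%, 2.58% and 9.52% called lower. Itgb1, the beta partner of Itga4 and Itga5, rose in all 4 (log2 fold changes 0.43, 0.64, 0.43 and 0.59), as did Itgav (0.53, 0.55, 0.44 and 0.49), while Itgb5 fell (-0.57, -1.06, -0.71 and -1.001). Itga1 had log2 fold changes of 0.56, 1.07, 0.40 and 0.95 in WT VEH, T41B VEH, WT BD10-2 and T41B BD10-2 mice, of which the second and the last passed the test. By genotype 3 of the 16 were called in each comparison, all higher in T41B mice (all genes: 5.0%, 4.74%, 4.31% and 8.19%). Itgax (CD11c, a partner of Itgb2 and a marker of plaque-associated microglia) was higher by 4.94, 3.76, 4.84 and 4.14 on the log2 scale, from 0.473 ± 0.121 CPM (SD, n = 4) in sham WT VEH to 14.6 ± 3.63 CPM (SD, n = 4) in sham T41B VEH slices. Itgb5 was higher in all 4 (0.98, 0.50, 0.98 and 0.69), while Itgb3 (0.83, 0.38, 1.08 and 0.40) passed the test in both sham comparisons and Itga9 (0.24, 0.60, 0.10 and 0.28) in stimulated VEH slices; their other values had the same sign and missed the threshold.

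Of 10 genes of integrin activation, 3, 3, 1 and 4 rose with stimulation and none fell, against 8.21%, 11.7%, 6.29% and 13.3% of all genes called higher and 4.1%, 9.83%, 2.58% and 9.52% called lower. Apbb1ip (RIAM, the adaptor between Rap1 and talin) rose in all 4 (0.98, 0.55, 1.23 and 0.74). Fermt2 (kindlin-2) had log2 fold changes of 0.45, 0.50, 0.27 and 0.47 in the 4, of which all but the third passed the test, and Rap1b of 0.60, 0.38, 0.35 and 0.65, of which the first and the last passed. Tln1 (talin) had log2 fold changes of 0.39, 0.43, 0.44 and 0.60 in WT VEH, T41B VEH, WT BD10-2 and T41B BD10-2 mice (edgeR adjusted p = 0.0623, 0.0254, 0.0874 and 0.000525), of which both T41B values passed the test. By genotype 5, 4, 4 and 4 were higher in T41B mice and none lower (all genes: 5.0%, 4.74%, 4.31% and 8.19% higher). The haematopoietic adaptor Fyb (1.58, 1.16, 1.45 and 1.15), Fermt3 (kindlin-3, 0.88, 1.04, 1.15 and 1.15) and Tln1 (0.61, 0.64, 0.63 and 0.80) were called in all 4, and Skap2 in 3 of 4 (0.39, 0.33, 0.29 and 0.47, the third not called).

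The genes whose log2(CPM + 1) followed each member most closely over the 32 samples were found by Pearson's r among tested genes averaging at least 1 CPM. For Icam1 these were Plaur (r = 0.989), Nfkb2 (0.985) and Slfn2 (0.984). Vcam1 was followed by Birc3 (0.988), Cxcl1 (0.986) and Parp14 (0.984). For Sele it was Selp (0.97), then Ets1 (0.954) and Tm4sf1 (0.951), and for Selp it was Sele, then Rasip1 (0.95) and Akap12 (0.944). Itga5 had Tubb6 (0.972), Cxcl16 (0.966) and Icam1 (0.964). The microglial subunits had other neighbours: Olfml3 (0.97) and Man2b1 (0.969) for Itgam, and Ctss (0.976), Mpeg1 (0.974) and C1qb (0.974) for Itgb2. Itga4 had Opcml (0.924), Kcnma1 (0.916) and Uhmk1 (0.905), and Itgal, at its low counts, H2-DMb1 (0.715), Aldh1l1 (0.705) and H2-Eb1 (0.704). All samples share the same group structure and libraries; with group means removed, r was 0.869 for Icam1 with Plaur, 0.819 for Vcam1 with Birc3, 0.864 for Sele with Selp, 0.788 for Itgam with Olfml3, 0.804 for Itgb2 with Ctss, 0.785 for Itga4 with Opcml and 0.658 for Itgal with H2-DMb1. For Itga5 it was 0.761 with Tubb6, 0.644 with Icam1 and 0.449 with Cxcl16, the lowest of the pairs named here.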

How the data were processed

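RNA of 36 libraries was counted per gene. The authors deposited expected counts from RSEM, most of them whole (5.69% of cells hold decimals). The submitters' processing notes name cutadapt 1.8.1, STAR 2.7.6a, RSEM 1.3.1, featureCounts 1.6 and SAMtools 1.11 with GRCm38.p6 and mm10; per the labels' protocols, ribosomal RNA was depleted and the kit marks strand. The strand setting of the counting and the annotation release are not given in the sources used here.

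Expected counts were rounded, and libraries of the same mouse and stimulation were added, giving 32 samples of 11597541 to 49652855 counts. Genes were filtered with filterByExpr (minimum count 10), scaled by TMM (factors 0.9095 to 1.063) and fitted with edgeR 4.0.16 (quasi-likelihood test, R 4.3.3) with 1 coefficient per group. P-values were adjusted by Benjamini-Hochberg over all 19478 genes tested, and called means an adjusted p under 0.05. CPM use TMM-scaled library sizes, and counting error limits precision most for Sele, Selp and Itgal. P-values measure the spread between mice of a group, with 1 estimate of spread shared by all groups. The main fit has no mouse term and so leaves out the pairing of slices. Stimulated and sham slices of 14 mice came from the same animal, so the numbers pair the samples: deviations from group means correlated at 0.29 on average (0.0532 to 0.552, 13 of 14 pairs over 0.1) within a mouse and at -0.0782 between mice. Alternatives used DESeq2 1.42.0, limma 3.58.1 (voom), other filters and scaling, batch as a covariate, a replicate block and leaving out each mouse; leaving out samples by choroid plexus or endothelial markers was chosen after seeing the data. Each batch label holds 1 treatment. Lengths came from GENCODE M21 and promoters from RefSeq, both GRCm38. The script was tested on simulated data.

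The 9 genes and the lists were chosen with earlier results of these data known. Besides the 9, the text names per list, and for stimulation and genotype each, up to 4 genes called in most of the 4 comparisons (ties by mean log2 fold change), and the 3 genes with the highest r to each member, of which 1 is not reported here.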

Additional observations from a re-analysis of the deposited data

Results flagged for a closer look

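In 54 groups of 4 or 5 samples, 3 values lay far from the rest of their group by Dixon's gap over range, where chance gives about 1 in 20 groups. Icam1 in the stimulated slice of WT VEH Mouse1509 was 69.14 CPM, the highest, with the next at 41.21 CPM (0.916 of the range, limit 0.829). Choroid plexus markers in that sample summed to 1229 CPM, the highest of the 32 samples. Icam1 in the stimulated T41B BD10-2 slice of Mouse1592 was 75.12 CPM, the lowest, with the next at 109.9 CPM (0.731, limit 0.71). Vcam1 in the same sample was 64.8 CPM, the lowest, with the next at 143.0 CPM (0.764, limit 0.71). That sample is the sum of 2 libraries with equal labels that held 45.98 and 99.89 CPM of Icam1, and its endothelial markers summed to 87.2 CPM, the lowest of its group (up to 163.6 CPM). The causes were not tested.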

How the results depend on the processing

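Of 261 alternative counts of called genes among the 9, 260 stayed within 1.5 times the main count. The exception was the genotype difference of the stimulation effect with BD10-2, where leaving out each mouse in turn gave 0 to 1, the 1 being Itga5 without Mouse1592; the cause was not tested. Of the 44 log2 fold changes called in the main analysis, 653 alternative values kept direction and call, 25 lost the call and 0 changed sign. The lost calls concern Itga4 (19 values in 3 comparisons), Itga5 between genotypes in stimulated VEH slices (4) and Selp (2). With the replicate block, Itga4 in WT VEH mice (-0.44) and Itgb2 in T41B VEH mice (-0.42) gained a call and Itga4 lost it with BD10-2 (-0.59 in WT, -0.34 in T41B); in the other stimulation comparisons it changed no call. In all, 19 values of uncalled differences gained a call: Itga4 (9), Vcam1 (4), Itgal (3), Itgb2 (2) and Itga5 (1), given beside those results except 2 from limma-voom with the replicate block (Itga4 in WT VEH mice, -0.44, adjusted p = 0.011, and Itgb2 in T41B VEH mice, -0.44, adjusted p = 0.0151). Fitting only both groups compared called 4 in WT VEH mice, since Sele and Selp did not pass the filter there.

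Signs changed for 15 values, all of uncalled differences. Itgal after stimulation became 0.04456 in T41B VEH mice without Mouse1553 (leaving out each mouse gave -0.7077 to 0.04456), 0.3731 without the samples high in choroid plexus markers, and 0.01578 in WT BD10-2 mice without Mouse1590 (-1.193 to 0.01578). Itgb2 after stimulation in WT BD10-2 mice became -0.005531 with the replicate block and -0.04717 without Mouse1590 (-0.04717 to 0.2393). Itgal between genotypes became -0.1246 in sham VEH slices without the samples high in choroid plexus markers, and in stimulated VEH slices -0.04712 with limma-voom and the replicate block, -0.2409 with the batch covariate, and -0.06663, -0.03812, -0.1927 and -0.07685 without Mouse1513, Mouse1522, Mouse1551 and Mouse1579 in turn (highest 0.3085). Sele between genotypes in sham BD10-2 slices became -0.2102 without Mouse1557 and -0.0006543 without Mouse1590 (-0.2102 to 0.5217), and Selp in stimulated BD10-2 slices became -0.2186 without Mouse1586 (-0.2186 to 1.064). Depth limits Sele and Selp in sham slices (0 to 28 counts a sample) and Itgal (4 to 53).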
